A study of Mus musculus with 10 samples.

Results

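The red cell cytosolic enzymes described here are Car1, Car2, Bpgm, Pklr, Blvrb, Ak1, G6pdx and Pgd, 8 genes of carbon dioxide handling, energy supply and defence against oxidation. Their members are the array probe sets (groups of short probes for 1 transcript) whose platform symbol is exactly one of these names. This gave 15 of 45101 probe sets, for 7 of the 8 genes, and 14 of them were tested. G6pdx, glucose-6-phosphate dehydrogenase, had no probe set under its symbol in the annotation used and was not analysed here. The levels come from 10 arrays of total RNA of MEL cells, a mouse erythroleukemia line of transformed red cell precursors. The parental Mel-BirA line has 2 arrays and carries BirA, a biotin ligase from bacteria. There are 2 arrays each of the subclones FBB1.11, FBB1.10, FBB1.7 and FBB1.5. All 4 carry BirA and also stably express BCL11A with a FLAG and biotin tag. Each subclone is 1 clone of that line, so a difference between clones and an effect of the tagged protein cannot be told apart within 1 subclone. BCL11A is a zinc finger repressor of embryonic and fetal globin genes.

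Mature red cells have no mitochondria and live on the enzymes packed into their cytosol during maturation. Carbonic anhydrases, which interconvert carbon dioxide and bicarbonate, are among the most abundant of these after hemoglobin. Glycolysis supplies all their ATP through steps that end with pyruvate kinase, and a side branch run by bisphosphoglycerate mutase makes the phosphate ester that lowers the oxygen affinity of hemoglobin. The pentose phosphate pathway supplies NADPH, which keeps glutathione and other antioxidants reduced.

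Pklr, which encodes the pyruvate kinase of red cells and liver, holds the member probe sets that differed most between the lines. Its start regions are shown for that reason, although its probe set 1438711_at differed less. It is known for an upstream start used in red cells and a downstream start used in liver. The RefSeq promoter table (assembly GRCm38.p6) holds both, on the plus strand, each from 250 bases before to 50 bases after the start. Capitals mark matches, on either strand, to AGATAA, a form of the site bound by GATA factors, to CACCC, the core of sites bound by KLF1, and to TATAAA, the TATA box. These motifs do not overlap each other.
Pklr upstream start, chr3:89135892-89136191: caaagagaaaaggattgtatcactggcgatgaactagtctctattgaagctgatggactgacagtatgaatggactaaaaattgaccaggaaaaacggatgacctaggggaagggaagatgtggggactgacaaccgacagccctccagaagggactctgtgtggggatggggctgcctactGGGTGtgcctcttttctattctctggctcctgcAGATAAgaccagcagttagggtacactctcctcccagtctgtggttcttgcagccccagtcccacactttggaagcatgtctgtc
Pklr downstream start, chr3:89136373-89136672: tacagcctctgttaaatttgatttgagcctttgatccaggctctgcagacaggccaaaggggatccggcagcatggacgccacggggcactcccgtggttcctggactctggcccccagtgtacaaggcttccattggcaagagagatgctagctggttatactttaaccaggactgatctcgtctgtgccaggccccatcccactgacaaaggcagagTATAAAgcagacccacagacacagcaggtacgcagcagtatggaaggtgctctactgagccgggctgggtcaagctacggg
In the upstream window AGATAA begins at position -35 and GGGTG, the reverse complement of CACCC, at position -68, counted from the start site. In the downstream window TATAAA begins at position -31. Of 32851 promoter windows of 300 bases, 11.2% hold AGATAA, 57.5% hold CACCC and 13.6% hold TATAAA, each on either strand. The table holds an entry for 6 of the 8 members, and AGATAA was matched in no window of the other 5. A match is a description of letters and was not tested as a site. Which start each Pklr probe set reads was not analysed here.

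Array medians lay between 29.6 and 31.6 intensity units, and Pearson's r across tested probe sets was 0.981 to 0.989 within a line and 0.968 to 0.987 between lines. The median of the whole table, 30.5, served as the background level. The 3′/5′ actin ratio, which rises as RNA or its copying shortens, was 1.80 on parental array 2 and 1.47 on FBB1.5 array 1 against 1.06 to 1.22 on the other 8. Erythroid markers were summed over the 10 of 15 that have a probe set of their own. The sum was 7242 to 7945 intensity units in parental, 8145 to 8454 in FBB1.11 and 7309 to 7706 in FBB1.10. It was 6792 to 6938 in FBB1.7, below every other line, and 7756 to 8287 in FBB1.5. Its largest parts were Tfrc, averaging 2574 in parental and 2036 in FBB1.7, and Gata1, averaging 2251 and 2231. Among these markers, Slc4a1 (the anion exchanger) and the probe set naming Hba-a1 alone were not above background in any line. Of 3 probe sets shared by Hba-a1 and Hba-a2, the brightest read 1952 to 3932, the next 1010 to 2189 and the dimmest 26.6 to 90.9, at background in parental. One shared by the adult beta globin genes read 865 to 1177. The 10 mast cell markers summed to 5449 to 6582 in parental, 1750 to 1761 in FBB1.11, 2103 to 2626 in FBB1.10, 876 to 979 in FBB1.7 and 4979 to 6313 in FBB1.5. Most of that sum was Mcpt2, a mast cell protease, which averaged 5453 ± 736 (SD, n = 2) in parental and 673 in FBB1.7. Cpa3, Cma1, Mcpt4, Tpsb2 and Kit were also above background in parental, while Fcer1a and Ms4a2 (chains of the IgE receptor), Hdc and Tpsab1 were not above it in any line. Whether these marker levels relate to the differences below was not tested.

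Of the 14 tested probe sets, 3 were called higher in FBB1.7 than in parental and 2 in FBB1.10, while 0 were called in FBB1.5 or FBB1.11. A call is an adjusted p below 0.05 in limma, with Benjamini-Hochberg adjustment over all 25061 tested probe sets. The shares of all tested probe sets called were 10.1% in FBB1.7 (4.55% higher), 1.8% in FBB1.10 (1.08% higher), 2.02% in FBB1.5 and 0.188% in FBB1.11. No member was called lower in a subclone. The genes called were Car1 and Pklr in both subclones, with Pklr represented by 2 probe sets in FBB1.7 and 1 in FBB1.10. Differences are on the scale log2(intensity + 16). The median difference of the 14 was 0.21 in FBB1.7, against 0.0037 over all tested probe sets. It was 0.12 against 0.020 in FBB1.5, 0.076 against 0.011 in FBB1.11, and 0.017 against 0.019 in FBB1.10. These comparisons share the 2 parental arrays, and probe sets of 1 gene share its RNA. In bulk RNA, fewer cells of a type and less RNA per cell cannot be told apart.

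Car1 encodes carbonic anhydrase I, the most plentiful red cell isoform in many mammals. Its probe set (1416193_at) read 8932 and 8908 in parental, 10179 and 10335 in FBB1.11, 9885 and 10051 in FBB1.10, 10507 and 10417 in FBB1.7, and 9045 and 9522 in FBB1.5. All 8 tagged arrays lay above both parental arrays, and both FBB1.7 arrays lay above every other array. Car1 was 0.23 log2 units higher in FBB1.7 than in parental (SE 0.039, limma adjusted p = 0.0018), a fold of 1.17. It was 0.16 higher in FBB1.10 (adjusted p = 0.0495). The differences of 0.20 in FBB1.11 (adjusted p = 0.053) and 0.057 in FBB1.5 (adjusted p = 0.54) did not pass. The FBB1.7 call held whichever array was left out (differences of 0.22 to 0.24, adjusted p of 0.0027 to 0.024), but ended with the actin ratio as a covariate (0.20, adjusted p = 0.054) and without the intensity trend (adjusted p = 0.19). The FBB1.10 call ended with all but 1 of the single arrays left out, at adjusted p of 0.049 to 0.23.

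Car2 encodes carbonic anhydrase II, the fast isoform, and its order of lines was different. Its probe set (1448752_at) read 2283 and 2755 in parental, 2043 and 2253 in FBB1.11, 2416 and 2368 in FBB1.10, 3153 and 2908 in FBB1.7, and 2019 and 2382 in FBB1.5. Both FBB1.7 arrays exceeded the other 8 arrays, and parental stood second by its mean. No subclone passed against parental: the difference was 0.27 in FBB1.7 (SE 0.093, limma adjusted p = 0.082) and between -0.22 and -0.068 in the others. The FBB1.7 difference was 0.40 without parental array 2 (adjusted p = 0.016) and 0.14 without parental array 1 (adjusted p = 0.41), and quantile normalization gave 0.13 (adjusted p = 0.43).

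Between subclones, a moderated F test called 2 of the 14 probe sets, Car2 (limma adjusted p = 0.010) and Car1 (adjusted p = 0.040), against 7.24% of all tested probe sets. Car2 was 0.46 higher in FBB1.7 than in FBB1.5 (adjusted p = 0.0054) and 0.49 lower in FBB1.11 than in FBB1.7 (adjusted p = 0.0092). Car1 was 0.17 higher in FBB1.7 than in FBB1.5 (adjusted p = 0.011). With Blvrb below, 4 combinations of probe set and pair were called over the 6 pairs, of which 2 in FBB1.7 against FBB1.5 (9.44% of all probe sets), 1 in FBB1.11 against FBB1.7 (3.29%) and 1 in FBB1.10 against FBB1.5 (3.92%). In the other 3 pairs 0 members were called, against 1.32% for FBB1.11 with FBB1.5, 0.124% for FBB1.10 with FBB1.7 and 0.267% for FBB1.11 with FBB1.10. The Car2 difference of FBB1.10 from FBB1.7, whose arrays do not overlap, was -0.34 (SE 0.093) and missed the adjusted threshold (adjusted p = 0.17). It passed without the 2 arrays of highest actin ratio, which was 1 of 11 further settings. Those arrays belong to neither line, so the difference stayed at -0.34 and only the shared estimate of spread changed. With any single array left out it did not pass (differences of -0.40 to -0.28). The Car1 F call ended without any 1 of the subclone arrays (adjusted p of up to 0.32), and the Car2 F call without FBB1.7 array 1 (adjusted p = 0.15). Car2 against FBB1.5 ended without FBB1.5 array 1 (0.34, adjusted p = 0.092) or FBB1.7 array 1 (0.40, adjusted p = 0.079). Car1 against FBB1.5 ended without FBB1.5 array 1 (0.14, adjusted p = 0.14), FBB1.7 array 1 (0.17, adjusted p = 0.092) or FBB1.7 array 2 (0.18, adjusted p = 0.055). The Car2 call of FBB1.11 against FBB1.7 ended without FBB1.7 array 1 or FBB1.11 array 1 (adjusted p = 0.13 for both).

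Car1 and Car2 lie on chromosome 3 in the RefSeq gene order Car13, Car1, Car3, Car2, with no further protein-coding gene among these 4. Of 14 other carbonic anhydrases 10 were tested. Against parental 0 were called in any subclone, beside 0.188% (FBB1.11) to 10.1% (FBB1.7) of all tested probe sets. Between subclones the F test called 1 of the 10, beside 7.24% of all tested probe sets. This was Car13, a cytosolic isoform (limma adjusted p = 0.0034), and its call held whichever array was left out. Its mean intensity was 125 ± 0.59 (SD, n = 2) in parental, 102 ± 5.6 in FBB1.11, 154 ± 29.6 in FBB1.10, 166 ± 5.9 in FBB1.7 and 86.0 ± 14.7 in FBB1.5. As with Car2, FBB1.7 was highest and FBB1.5 and FBB1.11 were lowest. Across the 10 arrays, Pearson's r between Car1 and Car2 was 0.32.

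Pklr makes the pyruvate kinase that catalyses the last step of glycolysis. Its brightest probe set (1421259_at) read 632 and 418 in parental, 845 and 710 in FBB1.11, 835 and 797 in FBB1.10, 867 and 780 in FBB1.7, and 551 and 674 in FBB1.5. FBB1.5 overlapped parental, and the other 6 tagged arrays lay above both lines. A further probe set (1421258_a_at) read 421 and 255 in parental, 621 and 556 in FBB1.11, 541 and 565 in FBB1.10, 662 and 586 in FBB1.7, and 430 and 595 in FBB1.5. Here all 8 tagged arrays lay above parental. The remaining probe set (1438711_at) read 580 and 538 in parental and 617 to 731 on the tagged arrays, again without overlap. On all 3 probe sets parental array 2 was the lowest of the 10.

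Pklr passed in FBB1.7 by 0.66 on 1421259_at (SE 0.153, limma adjusted p = 0.013) and by 0.89 on 1421258_a_at (SE 0.18, adjusted p = 0.0057), a fold of 1.86. In FBB1.10 it passed by 0.65 on 1421259_at (adjusted p = 0.044), with 0.72 on 1421258_a_at just missing (adjusted p = 0.056). The differences on 1438711_at were 0.22 to 0.34, and none passed. No Pklr probe set was called between subclones. The line means of 1421258_a_at spanned 0.89 log2 units, against a median span of 0.30 over 1001 probe sets of like intensity. Those of 1421259_at spanned 0.66 and those of 1438711_at 0.34, each against a median span of 0.31.

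The Pklr differences moved with the actin ratio and with single parental arrays. Across the 10 arrays, Pearson's r between log2 intensity and the log2 actin ratio was -0.94 for both 1421258_a_at and 1421259_at, a value at or below which lay 0.223% and 0.227% of tested probe sets. Without the 2 arrays of highest ratio it was -0.73 and -0.63. The FBB1.7 differences were then 0.55 (limma adjusted p = 0.0082) on 1421258_a_at and 0.37 (adjusted p = 0.062) on 1421259_at. With the ratio as a covariate they were 0.31 (adjusted p = 0.26) and 0.20 (adjusted p = 0.50). Without parental array 2 the values were 0.55 (adjusted p = 0.044) and 0.37 (adjusted p = 0.11), and in FBB1.10 the 1421259_at difference was 0.36 (adjusted p = 0.28). That FBB1.10 call ended for 7 of the 10 arrays left out. Without parental array 1, 1421258_a_at was called in all 4 subclones, with differences of 0.95 to 1.24. Without FBB1.7 array 1 neither FBB1.7 call held (adjusted p = 0.069 and 0.12), and without the intensity trend neither did. Over all single arrays left out, the FBB1.7 differences ranged from 0.55 to 1.24 and from 0.37 to 0.95. Among other members, r with the ratio was -0.77 for Car1, -0.13 for Car2, 0.0024 for Blvrb, 0.10 for Ak1 and -0.074 for Pgd 1423706_a_at. Without the 2 arrays of highest ratio these were -0.73, -0.79, 0.082, -0.019 and -0.61. The actin ratio is 1 measure over 10 arrays of which parental holds the highest. Its part in the differences of Pklr and the other members was not tested beyond the values given here.

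Bpgm, which makes bisphosphoglycerate, read 59.7 and 35.8 in parental, 97.9 and 61.6 in FBB1.11, 61.8 and 90.5 in FBB1.10, 93.1 and 67.9 in FBB1.7, and 41.8 and 74.1 in FBB1.5 on its brightest probe set (1448119_at). Parental and FBB1.5 overlapped, and the other 6 arrays lay above parental while spreading widely within each line. The differences from parental of 0.21 to 0.61 (SE 0.25) did not pass (limma adjusted p of 0.14 or more). Its 2 other probe sets were above background on 4 and 7 of the 10 arrays, none of their differences passed, and r between the Bpgm probe sets ranged from -0.064 to 0.35. The brightest probe set was above background on all 10 arrays. Across the 10 arrays 1448119_at had r = 0.88 with Pklr and -0.82 with the actin ratio, and without the 2 arrays of highest ratio these were 0.62 and -0.24.

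Blvrb encodes biliverdin reductase B, which reduces biliverdin and flavins with NADPH. It read 1151 and 1100 in parental, 1228 and 1356 in FBB1.11, 1041 and 1180 in FBB1.10, 1175 and 1209 in FBB1.7, and 1465 and 1383 in FBB1.5. Both FBB1.5 arrays lay above the other 8 arrays, and FBB1.10 overlapped parental. FBB1.10 was 0.36 lower than FBB1.5 (SE 0.083, limma adjusted p = 0.027). The difference of 0.33 between FBB1.5 and parental just missed (adjusted p = 0.053), as did the F test between subclones (adjusted p = 0.055). The FBB1.5 difference from parental passed without FBB1.10 array 1 or array 2. Neither array enters it, so it stayed at 0.33 and only the shared estimate of spread changed. With the other single arrays left out it did not pass, and over all of them it ranged from 0.29 to 0.38. It passed in 2 of 11 further settings, with differences of 0.26 to 0.34. The FBB1.10 against FBB1.5 call ended without FBB1.10 array 1, FBB1.5 array 1 or FBB1.5 array 2.

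Ak1, the cytosolic adenylate kinase that balances ATP, ADP and AMP, read 61.6 and 49.5 in parental, 50.5 and 38.9 in FBB1.11, 66.8 and 47.1 in FBB1.10, 48.8 and 57.2 in FBB1.7, and 75.6 and 65.7 in FBB1.5. Only the FBB1.5 range lay clear of parental. No difference from parental passed (-0.24 to 0.28, SE 0.17, limma adjusted p of 0.49 or more). Between subclones the largest was -0.52 for FBB1.11 against FBB1.5, which did not pass either (adjusted p = 0.23). Its other probe set (1423988_at) was at or below background on all 10 arrays and was not tested.

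Pgd encodes phosphogluconate dehydrogenase, the NADPH-producing step that follows G6pdx. Its brightest probe set (1423706_a_at) read 434 and 469 in parental, 493 and 470 in FBB1.11, 432 and 481 in FBB1.10, 499 and 510 in FBB1.7, and 504 and 491 in FBB1.5. All lines lay within a narrow band, and FBB1.10 overlapped parental. The 4 Pgd probe sets gave line means spanning 0.13 to 0.16 log2 units, against a median span of 0.30 to 0.31 for probe sets of like intensity. The differences of 1423706_a_at from parental were 0.014 to 0.16 (SE 0.095), and those of the other 3 Pgd probe sets were -0.093 to 0.095 (SE 0.11 to 0.13). No Pgd probe set passed in any comparison. That does not show equal levels.

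The tagged state as a whole was set against parental with the line as a random block, so that the spread between clones entered the error. Limma then called 0 of the 14 probe sets, and 0% of all 25061. At an unadjusted p under 0.05 there were 4 of the 14 and 2190 of all. The largest difference, 0.76 for Pklr 1421258_a_at, had an adjusted p of 0.32. A fit of 5 line means, which leaves the spread between clones out, called 3 of the 14 and 3.54% of all: Car1 (0.16, adjusted p = 0.010) and Pklr on 1421258_a_at (0.76, adjusted p = 0.0099) and 1421259_at (0.53, adjusted p = 0.027). Without parental array 1 the blocked fit called Pklr 1421258_a_at (adjusted p = 0.018).

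The neighbouring enzymes of glycolysis were tested for 14 of 17 listed genes. In FBB1.7, 5 were higher and 0 lower than in parental, beside 4.55% of all tested probe sets called higher there. In FBB1.10 2 were higher, beside 1.08%, and in FBB1.5 and FBB1.11 0 passed, beside 2.02% and 0.188% called. Ldha, which makes lactate, averaged 8526 ± 170 (SD, n = 2) in parental, 10719 ± 94 in FBB1.7 and 9700 ± 55 in FBB1.10, rising by 0.33 (limma adjusted p = 0.00012) and 0.19 (adjusted p = 0.023). Pkm, the other pyruvate kinase gene, rose by 0.33 in both, from 5364 ± 136 to 6765 ± 346 (adjusted p = 0.0022) and 6726 ± 257 (adjusted p = 0.011). Pgk1 (0.25) and Pgam1 (0.22) also passed in FBB1.7, as did Tpi1 (0.32), which was named after its values were seen. All 5 were called between subclones as well, beside 7.24% of all tested probe sets. The FBB1.7 calls of Ldha and Pkm held whichever array was left out, while those of Pgk1 and Pgam1 ended without FBB1.7 array 1 (adjusted p of up to 0.089 and 0.17). That of Pgam1 also ended without FBB1.7 array 2 or parental array 2. The Tpi1 call was not recomputed with arrays left out. The FBB1.10 calls of Pkm and Ldha ended without FBB1.10 array 1, and that of Ldha also without array 2 (adjusted p of up to 0.12 and 0.14). The median difference of the 14 genes in FBB1.7 was 0.11.

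Around Pgd, all 10 listed genes of the pentose phosphate pathway and glutathione reduction were tested. Against parental 2 were called in FBB1.7, 0 in FBB1.10, 2 in FBB1.5 and 0 in FBB1.11. The shares of all tested probe sets called were 10.1%, 1.8%, 2.02% and 0.188%. Between subclones the F test called 4, beside 7.24%. In FBB1.5 Tkt (transketolase) rose by 0.62, from 2992 ± 65 to 4592 ± 37 (adjusted p = 4.7e-05), and Taldo1 (transaldolase) fell by 0.71, from 347 ± 98 to 202 ± 5.6 (adjusted p = 0.019). Both are enzymes of the non-oxidative branch, and they moved in opposite directions. In FBB1.7 Gclm, a subunit of the enzyme that starts glutathione synthesis, rose by 0.50 (adjusted p = 0.0036), and so did Gsr, glutathione reductase, by 0.74 (adjusted p = 0.0022), named after its values were seen. The Tkt call held whichever array was left out, and the Gsr call was not recomputed in this way. The Taldo1 call ended without parental array 2 or either FBB1.5 array (adjusted p of up to 0.12), and the Gclm call without FBB1.7 array 1 (adjusted p = 0.050).

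Of 12 nucleotide enzymes listed around Ak1, 10 were tested. Against parental 3 were called in FBB1.7, 1 in FBB1.10, 1 in FBB1.5 and 0 in FBB1.11. The shares of all tested probe sets called were 10.1%, 1.8%, 2.02% and 0.188%. Between subclones the F test called 1, beside 7.24%. Aprt, which salvages adenine, averaged 2618 ± 129 in parental and rose by 0.50 in FBB1.7 (limma adjusted p = 0.00065), 0.35 in FBB1.10 (adjusted p = 0.027) and 0.35 in FBB1.5 (adjusted p = 0.023), with 0.36 in FBB1.11 (adjusted p = 0.063). Hprt, which salvages guanine and hypoxanthine, rose by 0.48 in FBB1.7 (adjusted p = 0.0038), and Ampd2, an AMP deaminase, fell by 0.57 (adjusted p = 0.00099). The FBB1.7 calls of Aprt and Ampd2 held whichever array was left out. Those of Aprt in FBB1.5 and FBB1.10 ended without parental array 1 or array 2 of the subclone itself (adjusted p of up to 0.21 and 0.23), and that of Hprt without FBB1.7 array 2 (adjusted p = 0.069).

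Of the 5 genes of heme breakdown and methemoglobin reduction around Blvrb, 3 passed in FBB1.7 and 1 in FBB1.10, beside 10.1% and 1.8% of all tested probe sets. Hmox1, a heme oxygenase, averaged 171 ± 11 in parental. It rose to 489 ± 38.9 in FBB1.7 (1.43, limma adjusted p = 1.5e-05) and 358 ± 66.3 in FBB1.10 (0.98, adjusted p = 0.0013). Both calls held whichever array was left out. Blvrb itself differed from parental by 0.082 in FBB1.7 and -0.022 in FBB1.10, neither of which passed. In FBB1.7 Cyb5a, cytochrome b5, rose by 0.29 (adjusted p = 0.036) and Cyb5r3, its reductase, fell by 0.46 (adjusted p = 0.021), but each call ended without parental array 2 or either FBB1.7 array (adjusted p of up to 0.20 and 0.14), and that of Cyb5a also without either FBB1.11 array.

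The genes most like each member were taken as the 3 with the highest Pearson's r over the 10 arrays, among about 4119 genes with a mean intensity above 200. They were Timm17a (r = 0.93), Snrpd3 and Nucb1 for Car1, and Arfip2 (r = 0.93), Ccnl1 and Scd1 for Car2. For Pklr they were Ube2d3 (r = 0.95), Glo1 and Slc25a51, and for Bpgm Tff1 (r = 0.94), Ighm and Hccs. For Blvrb they were Dok2 (r = 0.97), Slirp and Ost4, for Ak1 Mtmr6 (r = 0.88), Stx12 and Prxl2a, and for Pgd Vcp (r = 0.95), Atp5g1 and Mcm7. The points of each r share their arrays and the 2 arrays of high actin ratio, and no 2 members shared a gene among their 3.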

How the data were processed

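The 10 Affymetrix arrays hold total RNA of MEL cells. Per the labels' protocols, cDNA primed with oligo-dT was transcribed into biotinylated cRNA and stained with a streptavidin dye. Deposited values are intensities per probe set on a linear scale; for the authors' summarisation, background correction and scaling, the method is not stated in any label or file header. Titles and source names gave each array its line. No label says whether the 2 arrays of a line hold separate cultures, and p-values then describe array-to-array spread, possibly technical; 2 arrays per line limit the precision.

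The 64 control probe sets were left out. Testing required a value above the table median, 30.5, on at least 2 of 10 arrays. Values were taken as log2(intensity + 16), which understates the change of dim genes, and no further normalization was applied. Gene names come from the platform annotation: 34958 probe sets have 1 symbol, 932 several and 9211 none, and 34754 matched RefSeq (GRCm38.p6) by gene identifier. Apart from the marker sums and their largest parts, levels of different genes were not compared. Those sums add intensities of probe sets of different genes, so bright probe sets weigh most in them.

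Tests used R 4.3.3, limma 3.58.1 and statmod 1.5.0: a fit of 5 line means with an intensity trend, a moderated F test between subclones, contrasts for the 6 pairs of subclones, and tagged against parental with the line as a random block (duplicateCorrelation, 0.211). The fit's functions were tested on simulated data. A gene's representative is its brightest probe set by mean log2 value. Pathway genes were named if among the 4 of a list with the smallest F test p or called in at least 2 subclones. The members and lists were chosen with earlier results of these data known. Alternatives covered the pseudocount, normalization, filter, variance model, a replicate block and each array left out; the actin covariate and leaving out the 2 arrays of highest actin ratio were chosen after seeing the data.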

Additional observations from a re-analysis of the deposited data

Results flagged for a closer look

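The moderated F test between the 4 subclones, each a single clone, called 2 member probe sets (limma, adjusted over all tested probe sets). By that call their difference from parental was not the same in the 4 subclones. For Car2 the adjusted p was 0.0102, with the difference from parental above 0 in FBB1.7 and below 0 in the other 3 subclones. For Car1 it was 0.0398, with all 4 differences above 0 and that of FBB1.5 the smallest. The Car1 call ended without any 1 of the subclone arrays, without the filter, without the trend and with the actin covariate. The Car2 call ended without FBB1.7 array 1, without the filter and without the trend.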

How the results depend on the processing

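Of 3574 values of member differences under 26 settings, 3464 kept their side of the threshold, 74 fell short of it and 36 newly passed it. No called value changed sign, while the sign of values that were not called did not enter these counts. The FBB1.7 count of 3 became 0 without the intensity trend and with the actin covariate, and ranged from 1 to 3 with single arrays left out. The FBB1.10 count of 2 became 3 with the filter on all 10 arrays, 1 with median centring, 0 with a pseudocount of 1, quantile normalization, no filter, no trend, robust eBayes, the actin covariate or without the 2 arrays of highest actin ratio, and 0 to 3 with single arrays left out. The FBB1.11 count of 0 became 1 with a pseudocount of 64, quantile normalization, robust eBayes, the filter on all 10 arrays or the replicate block (0 to 3 with single arrays left out), and the FBB1.5 count of 0 became 1 with the last pair of these (0 to 2). The F test count of 2 became 3 with the filter on all 10 arrays, 0 without a filter or the trend and 1 with the actin covariate or without the 2 arrays (0 to 4). The 4 calls between pairs became 2 without a filter, 0 without the trend, 5 with quantile normalization and 3 without the 2 arrays (1 to 6). The tagged count of 0 became 3 in the fit of 5 line means (0 to 1). Same-numbered arrays correlated at -0.157 to 0.183 in their deviations, so the numbers were not taken to pair them, and among the member counts the replicate block moved those of FBB1.11 and FBB1.5. Over all tested probe sets the block moved the FBB1.11 count from 47 to 121. Across all settings those counts ranged from 859 to 2637 in FBB1.7 (2519), 1 to 1194 in FBB1.10 (450), 22 to 810 in FBB1.5 (507), 8 to 435 in FBB1.11 (47), 483 to 2402 for the F test (1814) and 0 to 887 for all tagged arrays (0). With 1 array left out, its line keeps a single array whose spread is taken from the remaining lines. Of 2190 values of named pathway genes, 2076 kept their side of the threshold, 87 fell short of it and 27 newly passed it. For those genes the Results describe only single arrays left out, not the other settings. The dimmer Bpgm and Ak1 probe sets lie at or near background, which limits what they can show.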
